A study of Mus musculus with 7 samples.

Results

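Lyve1, Prox1, Flt4, Mmrn1, Reln and Pdpn are 6 genes by which the endothelium of lymphatic vessels is recognised, and their levels were followed here in luminal cells sorted from mouse prostates. They are 6 of 18193 genes and 12 of 45037 probe sets on the Affymetrix 430 2.0 array. The genes are listed by name and were chosen by their measured intensities on these same arrays, known from an earlier look at the data, so their levels and group differences are given as a description without a test. T-ETV1 cells were measured on 4 arrays, lettered A to D, and wild-type (WT) cells on 3, lettered A to C. In T-ETV1 mice the endogenous Tmprss2 promoter drives a cDNA of human ETV1, an ETS transcription factor, so the allele is driven wherever Tmprss2 is active. The gate took CD49f-positive, Sca1-negative cells from those lacking CD31, CD45 and Ter119. T-ETV1 cells were in addition GFP positive and no GFP gate is given for WT cells, so the effects of the gate and of the genotype cannot be told apart. The labels give neither the age of the mice nor how many mice were pooled for an array. The series text speaks of 3 biological replicates without naming animals, so the spread between arrays may in part be technical.

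Lymphatic vessels collect tissue fluid and immune cells and return them to the blood. Their endothelium arises from veins when the homeobox factor PROX1 is switched on, and it then depends on VEGFR3, the receptor encoded by Flt4, which binds VEGF-C and VEGF-D. LYVE1 is a hyaluronan receptor of lymphatic capillaries, PDPN (podoplanin) a mucin-like membrane protein that binds CLEC-2 on platelets, MMRN1 (multimerin 1) a secreted matrix and platelet granule protein, and RELN (reelin) a large secreted glycoprotein best known for guiding neurons. None of the 6 belongs to lymphatic endothelium alone: some tissue macrophages carry LYVE1, platelets MMRN1, neurons RELN and PROX1, and basal epithelial cells and fibroblasts PDPN. The CD31 gate is meant to remove endothelial cells, lymphatic ones included.

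Luminal markers were alike in all arrays, while 2 arrays stood apart in the genes of other cell types. Krt8, a luminal keratin, had intensities of 5505 to 8523 in T-ETV1 arrays and 5612 to 7234 in WT arrays, Krt18 had 10023 to 11187 in T-ETV1 and 9923 to 10548 in WT, Epcam had 4688 to 6392 in T-ETV1 and 5934 to 7159 in WT, and the sum over 10 luminal genes was 65810 to 75976 in T-ETV1 and 67418 to 71652 in WT. Itga6 (CD49f), which was selected for, lay between 2469.7 and 4299.5 in T-ETV1 and between 2591 and 3089 in WT. Tmprss2, whose promoter drives the allele, lay between 2908 and 4945 in T-ETV1 and between 3818 and 4470.3 in WT. WT C was the highest of the 7 arrays for 12 of 12 macrophage genes, 10 of 10 fibroblast genes and 19 of 20 blood and general endothelial genes. T-ETV1 C was the highest of the T-ETV1 arrays for 10 of 10 basal cell genes and 16 of 20 blood and general endothelial genes. No such shares over all genes are given here. The median intensity was itself highest in WT C (73.65) and, within T-ETV1, in T-ETV1 C (62.86). Where leaving out 1 array moved a list's median or a gene's printed difference by over 1.5 times, or changed a call, that value is given beside it. Precision is limited by how few arrays there were.

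All 6 lymphatic genes were held by T-ETV1 C and by every WT array, and were near the lower end of the array's range, or close to its middle, in T-ETV1 A, B and D. Prox1, the master factor of lymphatic identity, had intensities of 8.30, 42.9, 751 and 5.89 in T-ETV1 arrays A, B, C and D, against 565, 597 and 493 in WT arrays A, B and C. Among the T-ETV1 arrays only T-ETV1 C reached the WT arrays, and it exceeded all 3 of them. Flt4, encoding the VEGF-C receptor VEGFR3, had 6.78, 11.6, 588 and 5.68 in T-ETV1 arrays A, B, C and D, against 249.6, 603 and 477 in WT arrays A, B and C. Here T-ETV1 C lay between WT C and WT B, and the other T-ETV1 arrays lay far below WT A, the lowest of the WT arrays.

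Among the surface and secreted products the split was the same, with T-ETV1 A, B and D below all other arrays. Lyve1, the hyaluronan receptor, had intensities of 71.1, 30.6, 2423 and 35.0 in T-ETV1 arrays A, B, C and D, against 936, 1266 and 1740.4 in WT arrays A, B and C. Pdpn had 80.3, 112, 3330.05 and 173 in the T-ETV1 arrays, against 1249.9, 2541 and 2885 in the WT arrays. For both genes T-ETV1 C was the highest of the 7 arrays and T-ETV1 A, B and D were below every WT array. Mmrn1, the matrix protein, had 13.2, 10.7, 1086 and 3.86 in T-ETV1 arrays A, B, C and D, against 368, 849.9 and 522.5 in WT arrays A, B and C. Reln had 2.75, 4.73, 1052 and 1.68 in the T-ETV1 arrays, against 646, 566 and 622 in the WT arrays. Pdpn in T-ETV1 C was at 19.2 times the next highest T-ETV1 array. No such ratio is given for the other genes, whose next highest T-ETV1 arrays were dim or near the middle of the range.

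**Figure D1:**
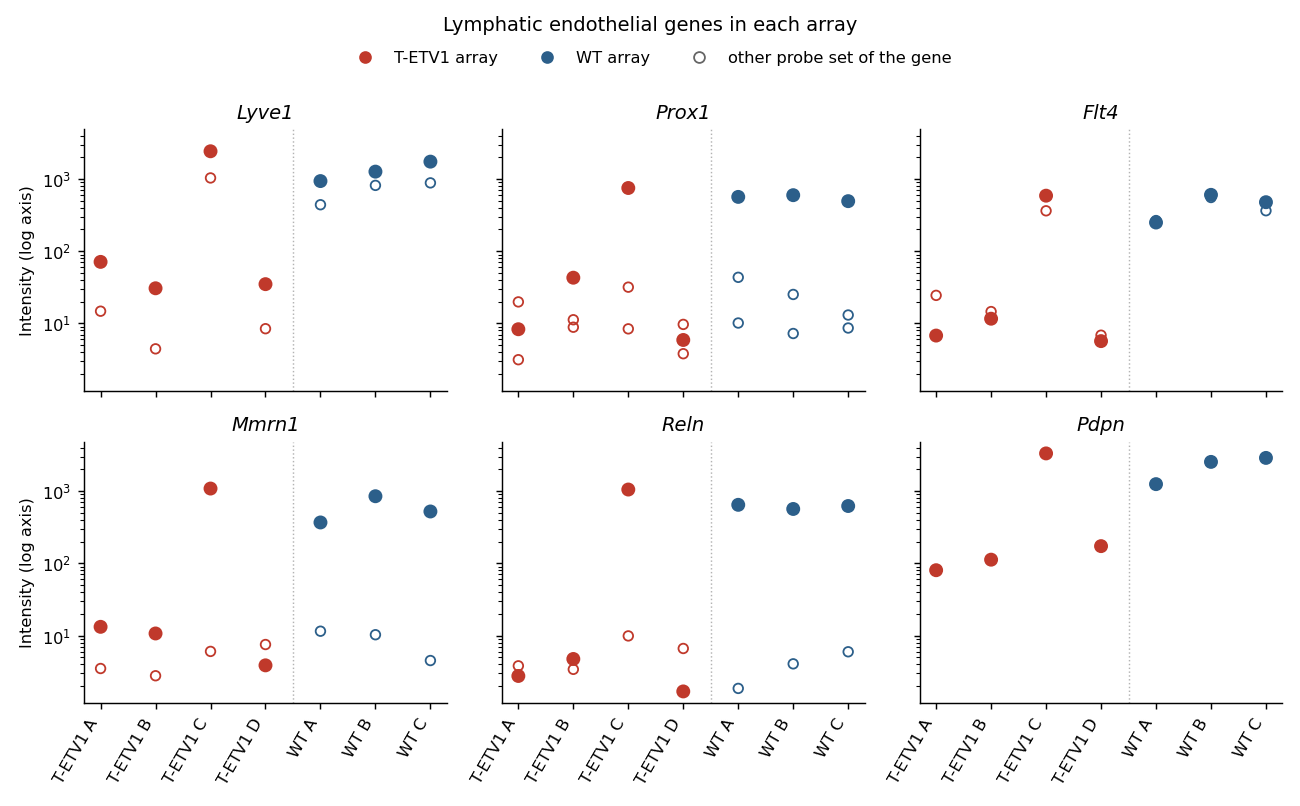
Intensity of each lymphatic gene (vertical log axis) in each of the 7 arrays (horizontal axis, T-ETV1 left of WT). Filled points are the probe set with the highest mean and open points the other probe sets of the gene. T-ETV1 C sits with the WT arrays in all 6 panels, for example at 1052 for Reln, where T-ETV1 A, B and D are at 1.68 to 4.73.

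Set against all probe sets of the same array, the genes lay in the upper part of the distribution in T-ETV1 C and the WT arrays, and in most cases in its lower part in the others. Reln lay at or above 5.13%, 11.3%, 82.7% and 2.41% of the probe sets in T-ETV1 arrays A, B, C and D, against 78.1%, 75.5% and 74.9% in WT arrays A, B and C. Flt4 was at 18.0%, 27.7%, 75.3% and 14.9% in the T-ETV1 arrays, against 67.1%, 76.3% and 71.5% in the WT arrays. Pdpn kept a place above the middle in every array, at 55.6% to 95.5% in T-ETV1 and 86.1% to 93.9% in WT, and Lyve1 was at 43.4% to 92.6% in T-ETV1 and 82.6% to 88.2% in WT. Intensities near the bottom of the range cannot be ordered among themselves with any confidence, so the sizes of the differences of Reln, Flt4, Mmrn1 and Prox1 are less firm than those of Pdpn and Lyve1.

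The WT arrays were close to each other for these genes. Reln differed by 1.14 times between its highest and lowest WT array and Prox1 by 1.21 times. Lyve1 differed by 1.86 times, and Mmrn1, Pdpn and Flt4 by 2.31, 2.31 and 2.42 times. The WT arrays thus differed far less in the lymphatic genes than in the macrophage genes, whose sum was 192, 344 and 15379 in WT arrays A, B and C.

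As group means on the scale of log2(intensity + 16), all 6 genes were lower in T-ETV1, with a spread within T-ETV1 nearly as large as the difference. Reln averaged 5.70 ± 2.91 (SD, n = 4) in T-ETV1 and 9.29 ± 0.10 (SD, n = 3) in WT, a difference of -3.59 ± 1.49 (SE) in the limma fit over all genes. The differences of the other genes were -3.13 ± 1.43 (Mmrn1), -3.10 ± 1.40 (Lyve1), -3.02 ± 1.23 (Prox1), -3.01 ± 1.23 (Flt4) and -2.83 ± 1.24 (Pdpn). Their median was -3.06, beside -0.03 for the median of all 18193 genes (0.02 after quantile normalization and 0.11 after median centring). The groups overlapped in all 6, since T-ETV1 C lay at or above the lowest WT array. Over all genes 0 of 18193 (0%) passed a limma adjusted p of 0.05, the smallest adjusted p being 0.485, while 1113 (6.12%) had an unadjusted p under 0.05. The RNA came from sorted cells in bulk, so fewer cells of a type and less RNA per cell cannot be told apart.

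The differences were larger without T-ETV1 C. Without T-ETV1 C the differences were -5.04 ± 0.12 (SE) for Reln, -4.50 ± 0.33 for Mmrn1, -4.45 ± 0.33 for Lyve1, -4.18 ± 0.33 for Flt4, -4.17 ± 0.40 for Prox1 and -3.99 ± 0.40 for Pdpn. The array that broke the split was left out there, so these SEs understate the spread within T-ETV1. Of all genes, 26 (0.143%) were called lower in that fit at a limma adjusted p of 0.05, and 58 (0.319%) without both arrays C. No call is given for the 6 genes, which were listed with this pattern known. Nor is anything read from a gene said below to pass without T-ETV1 C or without both arrays C. Without WT C, with T-ETV1 C kept, the median of the 6 was -3.01. The order of the arrays that all 6 genes share, with T-ETV1 A, B and D each below every WT array and T-ETV1 C at or above the lowest WT array, was described after the values were seen and was met by 1262 of all genes (6.94%). It was met by 473 of the 2188 genes (21.6%) that reached an intensity of 100 in some array and ranged over at least 2 on the log2 scale.

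Taken by the replicate letters, the sign of the difference changed with the letter. For letter A, T-ETV1 minus WT was -5.14 (Reln), -4.58 (Prox1), -3.72 (Mmrn1), -3.72 (Pdpn), -3.54 (Flt4) and -3.45 (Lyve1) on the log2 scale. For letter B all 6 were lower too, from -5.02 (Mmrn1) to -3.38 (Prox1). For letter C all 6 were higher in T-ETV1 C than in WT C, by 1.03 (Mmrn1), 0.74 (Reln), 0.59 (Prox1), 0.47 (Lyve1), 0.29 (Flt4) and 0.21 (Pdpn). Of all genes 44.1% were higher in T-ETV1 C than in WT C, and 18.1% had T-ETV1 C as the highest of the 7 arrays. No WT array has the letter D, and the labels do not say what the letters stand for.

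The probe sets of a gene did not all carry signal. The second probe set of Lyve1 had intensities of 14.8, 4.44, 1035 and 8.44 in T-ETV1 arrays A, B, C and D, against 440.2, 816 and 884 in WT arrays A, B and C. That of Flt4 had 24.4, 14.6, 363 and 6.86 in the T-ETV1 arrays, against 266, 554 and 364 in the WT arrays. Both repeated the order seen with the first probe set, T-ETV1 C being at or above the lowest WT array and T-ETV1 A, B and D below all of them. The other probe sets of Prox1, Mmrn1 and Reln stayed low throughout. The 2 further ones of Prox1 lay between 3.14 and 31.8 in T-ETV1 and between 7.24 and 43.5 in WT, the one of Mmrn1 between 2.77 and 7.50 in T-ETV1 and between 4.50 and 11.5 in WT, and that of Reln between 3.40 and 9.87 in T-ETV1 and between 1.85 and 5.95 in WT. Pdpn had a single probe set.

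The stretches just before the start sites of 3 of the genes are shown because ETV1 is an ETS factor and the genes moved together across the arrays. RefSeq promoters of the build GRCm38.p6 were matched for 5 of the 6 genes, all but Lyve1, with 6 promoters because Prox1 has more than 1. Each sequence is the 250 bases before the start site on the strand of the gene, written 5′ to 3′. Reln lies at chr5:22344706-22344955 on the minus strand, Mmrn1 at chr6:60944067-60944316 on the plus strand and Flt4 at chr11:49609429-49609678 on the plus strand. Capitals mark the ETS core GGAA, the longer ETS motif CCGGAAG, which contains the core, and the SOX motif AACAATG, each on either strand.
Reln: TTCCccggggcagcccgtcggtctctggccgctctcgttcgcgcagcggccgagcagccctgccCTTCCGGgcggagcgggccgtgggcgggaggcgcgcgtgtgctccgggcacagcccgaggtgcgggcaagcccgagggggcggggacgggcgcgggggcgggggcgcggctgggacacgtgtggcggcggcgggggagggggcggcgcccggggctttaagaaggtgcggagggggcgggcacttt
Mmrn1: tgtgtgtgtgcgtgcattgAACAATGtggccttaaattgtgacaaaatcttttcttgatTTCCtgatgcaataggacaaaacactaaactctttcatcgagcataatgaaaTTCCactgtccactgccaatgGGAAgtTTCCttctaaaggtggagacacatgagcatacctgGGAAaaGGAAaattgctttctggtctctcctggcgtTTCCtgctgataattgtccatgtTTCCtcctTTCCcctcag
Flt4: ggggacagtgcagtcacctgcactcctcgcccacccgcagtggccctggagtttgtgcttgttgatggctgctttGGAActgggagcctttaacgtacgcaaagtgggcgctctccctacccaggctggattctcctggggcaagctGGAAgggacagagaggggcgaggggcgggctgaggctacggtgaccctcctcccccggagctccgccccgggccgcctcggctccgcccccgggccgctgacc

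The 3 stretches differ in kind. That of Reln is 80% G and C, that of Flt4 68.4% and that of Mmrn1 42.4%, beside a median of 52.4% over 32851 RefSeq promoters cut to the same length. The ETS core occurred 9 times before Mmrn1, 2 times before Reln and 2 times before Flt4, beside a median of 3 and a share of 93.4% of all promoters with at least 1 match. The longer ETS motif was found before Reln only among the 6 promoters, at positions -186 to -180 counted from the start site, and in 6.91% of all promoters. The SOX motif was found before Mmrn1 only among the 6, and in 3.29% of all promoters. The GATA motif AGATAAG and the AP-1 motif TGACTCA, present in 2.74% and 4.46% of all promoters, were in none of the 6. Among the 5 genes with a promoter entry, the ETS core was thus the only searched motif found before all, and nearly all promoters hold it.

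Other genes known from lymphatic endothelium followed the 6 only in part. Of 14 such genes listed, 12 were measured, and the chemokine gene Ccl21a was left out because its probe set is shared with other genes. In T-ETV1 10 of the 12 were lower and 2 higher, with a median difference of -0.63 (-0.98 without T-ETV1 C, -1.04 without WT A and -0.30 without WT C). None passed an adjusted p of 0.05 in limma, and 4 were lower at an unadjusted p under 0.05, beside 4.12% of all genes. The 4 were Nrp2, Sox18, Fxyd6 and Thy1. Nrp2, a co-receptor of VEGF-C, had intensities of 4.82, 21.3, 292 and 10.02 in T-ETV1 arrays A, B, C and D, against 135, 364 and 644 in WT arrays A, B and C. Its log2 difference was -2.75 ± 1.02 (SE, limma adjusted p = 0.789). Fxyd6, an ion pump regulator, had 16.9, 29.0, 283 and 15.9 in the T-ETV1 arrays, against 200.5, 289 and 445 in the WT arrays. Its difference of -2.35 ± 0.83 (limma adjusted p = 0.772) became -3.11 without T-ETV1 C and then passed (limma adjusted p = 0.0497). Thy1, a surface glycoprotein also found on other stromal cells, had a difference of -2.75 ± 1.14, and Sox18, which acts upstream of Prox1, one of -1.01 ± 0.34. Sox18 had low intensities throughout, of 8.12 to 40.7 in T-ETV1 and 38.4 to 70.4 in WT.

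Several other listed lymphatic genes had another order of arrays. Nr2f2, an orphan nuclear receptor that acts with PROX1 and is also made in other cells, was at 1689 to 2365 in T-ETV1 and 2070.5 to 2934 in WT, with T-ETV1 C in the middle of its group. Foxc2, a factor of lymphatic valves, had 20.9, 36.5, 207 and 68.9 in T-ETV1 arrays A, B, C and D, against 11.8, 287 and 123 in WT arrays A, B and C, so WT A did not hold it. Itga9, an integrin chain of lymphatic valves, had 26.6, 26.6, 136 and 81.2 in the T-ETV1 arrays, against 24.6, 32.0 and 119 in the WT arrays. In that gene the C arrays of both groups were the high ones and WT A and B were as low as T-ETV1 A and B.

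Of the VEGF-C and VEGFR3 pathway around Flt4, T-ETV1 C was the highest of the T-ETV1 arrays for 12 of 19 genes, receptors and ligands among them. In Flt1 it was so only narrowly, at 33.6 against 32.7 in T-ETV1 A, and no share over all genes is given for this count. Of the 19 genes measured, which share Nrp2 with the lymphatic list and some receptors with the endothelial one, 15 were lower and 4 higher in T-ETV1, with a median difference of -1.32 (-2.06 without WT A, -0.87 without T-ETV1 A and -0.56 without WT C). None passed an adjusted p of 0.05 in limma, and 4 were lower at an unadjusted p under 0.05 (Nrp2, Tie1, Angpt1 and Ramp2), beside 4.12% of all genes. Vegfc, the main ligand of VEGFR3, had intensities of 34.3 to 76.0 in T-ETV1 and 24.0 to 114 in WT. Vegfd, the other ligand, had 1.68 to 28.3 in T-ETV1, against 6.63, 7.24 and 153 in WT arrays A, B and C. Ccbe1, a secreted protein needed to process VEGF-C, was well measured in every array, at 1320.0 to 1664 in T-ETV1 and 1033 to 1855 in WT, while Adamts3, the protease it works with, had 1.68 to 6.41 in T-ETV1 and 1.81 to 45.5 in WT. For none of these 4 did the groups separate.

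Among the receptors, Kdr (VEGFR2) had 20.8, 29.0, 251 and 16.4 in T-ETV1 arrays A, B, C and D, against 102, 287 and 348 in WT arrays A, B and C, a difference of -1.93 ± 0.82 (limma adjusted p = 0.815). The angiopoietin receptor family member Tie1 had a difference of -1.93 ± 0.64 (limma adjusted p = 0.758). Calcrl and Ramp2 together form the receptor for adrenomedullin, which acts on lymphatic growth. Calcrl had 37.2, 5.20, 577 and 8.25 in the T-ETV1 arrays, against 213, 316 and 1184 in the WT arrays, and Ramp2 had 24.6, 11.0, 178 and 6.72 in the T-ETV1 arrays, against 165, 289 and 657 in the WT arrays. Their differences were -2.83 ± 1.26 and -2.83 ± 0.83 (limma adjusted p = 0.822 and 0.731). In Kdr, Tie1, Calcrl and Ramp2 T-ETV1 C again stood above the other T-ETV1 arrays, but below WT C. Tek, the angiopoietin receptor itself, had 23.4, 13.3, 74.8 and 32.5 in the T-ETV1 arrays, against 32.2, 144 and 683 in the WT arrays. Angpt1, a ligand of that receptor made by mural and stromal cells, did not share that order, with 16.2, 13.4, 13.3 and 40.2 in T-ETV1 arrays A, B, C and D, against 193, 81.9 and 273 in WT arrays A, B and C. Its groups did not overlap, and its difference was -2.35 ± 0.42 (limma adjusted p = 0.581). Angpt2, another ligand, had 73.3 to 209.7 in T-ETV1 and 66.6 to 138 in WT, so its groups overlapped.

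Genes of blood vessel and general endothelium were also lower in T-ETV1, but 19 of 20 were higher in WT C than in T-ETV1 C. All 20 measured genes were lower, with a median difference of -1.77 (-1.02 without WT C). None passed an adjusted p of 0.05 in limma, 8 were lower at an unadjusted p under 0.05, beside 4.12% of all genes, and in 3 the groups did not overlap, beside 3.90% of all genes. Their summed intensity was 1434, 904, 3945 and 1231 in T-ETV1 arrays A, B, C and D, against 2805, 3788 and 11453 in WT arrays A, B and C. Of the same 20 genes, 9 met the order of arrays shared by the 6 lymphatic genes, beside 6.94% of all genes. The sum over the 6 lymphatic genes was 182, 213, 9229 and 225 in the T-ETV1 arrays, against 4015, 6423 and 6741 in the WT arrays. Between T-ETV1 C and WT C the 20 genes had a median difference of -1.71, whereas all 6 lymphatic genes were higher in T-ETV1 C, with a median of 0.53. That contrast was not tested, because it rests on a single array of each group and the lymphatic genes were chosen.

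Plvap, a protein of the diaphragms of blood capillaries, was low in T-ETV1 C as well. It had 8.35, 10.8, 6.43 and 6.77 in T-ETV1 arrays A, B, C and D, against 49.2, 124 and 326 in WT arrays A, B and C, so that T-ETV1 C did not hold it while holding all 6 lymphatic genes. Its difference was -2.60 ± 0.51 (limma adjusted p = 0.581). Ptprb, an endothelial phosphatase, had 20.8, 25.9, 69.9 and 26.1 in the T-ETV1 arrays, against 159, 154 and 1104 in the WT arrays, a difference of -2.73 ± 0.72 (limma adjusted p = 0.671). Without both arrays C its difference was -2.10 and passed (limma adjusted p = 0.0216). Of the 20 genes, 16 were highest in T-ETV1 C among the T-ETV1 arrays, Cldn5, Cdh5 and Pecam1 among them. Cldn5, a tight junction protein, had 15.9, 15.7, 222 and 13.3 in T-ETV1 arrays A, B, C and D, against 266, 282 and 315 in WT arrays A, B and C. Its difference was -2.56 ± 0.76 (limma adjusted p = 0.737), and -3.29 without T-ETV1 C, where it passed (limma adjusted p = 0.00181). Cdh5, the endothelial cadherin, had 68.6, 17.6, 872 and 1 in the T-ETV1 arrays, against 548, 515 and 1483 in the WT arrays, a difference of -3.24 ± 1.33 (limma adjusted p = 0.806). Pecam1 (CD31), on which cells were sorted out, had 8.21, 8.84, 46.2 and 8.97 in the T-ETV1 arrays, against 13.6, 42.9 and 205 in the WT arrays, a difference of -1.23 ± 0.71 (limma adjusted p = 0.866), of -1.88 without WT A and of -0.43 without WT C. In WT A the lymphatic genes were at 249.6 or more and Pecam1 was at 13.6, while Cdh5 was at 548 and Cldn5 at 266. Of the 20 endothelial genes, 9 were below the median probe set of WT A. Intensities of different probe sets do not compare as amounts of RNA. The part of endothelial cells in the levels of the lymphatic genes was not tested.

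**Figure D2:**
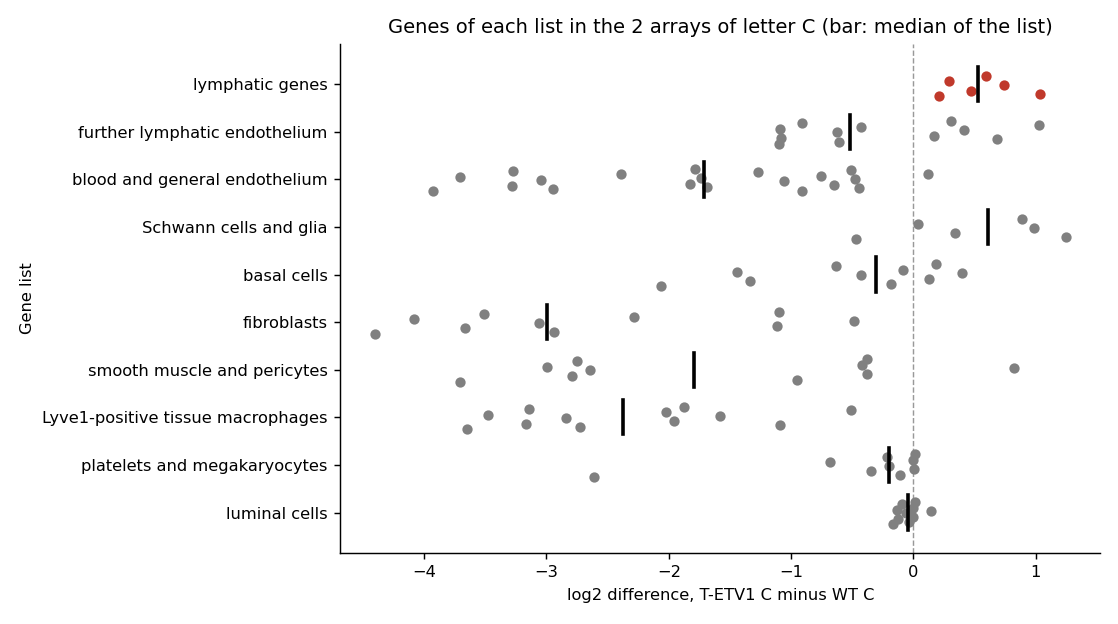
Difference on the log2 scale between T-ETV1 C and WT C (horizontal axis) for every measured gene of 10 gene lists (vertical axis). Each point is a gene and each black bar the median of the list. All 6 lymphatic genes lie right of 0 (median 0.53), while 19 of 20 blood and general endothelial genes lie left of it (median -1.71).

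The other cell types that carry single members of the 6 were looked at through their own markers. For Lyve1 these were 12 genes of Lyve1-positive tissue macrophages, whose sum was 604, 357, 3246 and 93.3 in T-ETV1 arrays A, B, C and D, against 192, 344 and 15379 in WT arrays A, B and C. Csf1r, the macrophage growth factor receptor, had 2.95, 2.85, 295 and 9.01 in the T-ETV1 arrays, against 26.9, 6.10 and 2213 in the WT arrays. Cd163, a scavenger receptor of tissue macrophages, had 2.34 to 54.8 in T-ETV1, against 2.90, 6.44 and 772 in WT. Mrc1, the mannose receptor, had 257, 110.2, 240.0 and 13.5 in the T-ETV1 arrays, against 78.1, 210.2 and 1673 in the WT arrays. Of the 12 genes, 11 were below the median probe set of the array in WT A, 10 in WT B and 0 in WT C, while Lyve1 was above it in all 3. All 12 were lower in T-ETV1 (median difference -0.96), and 0 had an unadjusted p under 0.05 in limma. The median ran from -1.82 to 0.74 with 1 array left out, and it was above 0 without WT C, so its sign rested on that array. The part of macrophages in the level of Lyve1 was not tested.

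For Mmrn1 the markers were those of platelets and megakaryocytes, of which 9 were measured, with a median difference of -0.06 (-0.21 to 0.012 with 1 array left out) and 0 genes at an unadjusted p under 0.05 in limma. Itga2b, the platelet integrin chain, had 74.01, 93.1, 22.3 and 80.6 in T-ETV1 arrays A, B, C and D, against 32.0, 76.9 and 217 in WT arrays A, B and C. Pf4, a platelet chemokine that macrophages can also make, had 68.7, 7.33, 1177 and 139 in the T-ETV1 arrays, against 1.74, 5.65 and 1902 in the WT arrays, with both C arrays the highest of their group. Clec1b, encoding the platelet receptor CLEC-2 that binds podoplanin, had 1.81 to 13.2 in T-ETV1 and 5.65 to 12.0 in WT. The part of platelets in the level of Mmrn1 was not tested.

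For Pdpn the candidates were basal cells and fibroblasts. The order of arrays shared by the 6 lymphatic genes was met by 6 of 10 basal genes and 0 of 10 fibroblast genes. Of all genes 6.94% met it. The share was 21.6% among genes that reached an intensity of 100 and ranged over at least 2 on the log2 scale. The order was also met by 9 of 20 blood and general endothelial genes and 4 of 6 glial genes. So it was by 5 of 12 further lymphatic, 7 of 19 pathway and 3 of 10 smooth muscle genes. Among partners 3 of 17 met it, and among neural and leukocyte genes 2 of 9 each. For platelet genes it was 1 of 9, for luminal genes 1 of 10 and for macrophage genes 0 of 12. All 10 basal genes were lower in T-ETV1 (median difference -1.57, and -2.41 without WT A, 2 at an unadjusted p under 0.05, beside 4.12% of all genes), and their sum was 3664, 4507, 20495 and 4963 in T-ETV1 arrays A, B, C and D, against 8791, 15711 and 23120.2 in WT arrays A, B and C. Krt5, a basal keratin, had 24.7, 16.4, 1753 and 205 in the T-ETV1 arrays, against 349, 1578 and 2364 in the WT arrays. Krt14, its partner keratin, had 35.2, 19.9, 1191 and 23.6 in the T-ETV1 arrays, against 219, 866 and 3034 in the WT arrays, a difference of -3.15 ± 1.47 (limma adjusted p = 0.824). All 10 fibroblast genes were lower as well (median -1.82, -2.90 without WT A and -0.49 without WT C, 3 at an unadjusted p under 0.05), with a sum of 3157, 2214, 9545 and 3223 in the T-ETV1 arrays, against 5810 (WT A), 9090.3 (WT B) and 30845 (WT C). Their part in the level of Pdpn was not tested. Dcn, the proteoglycan decorin, had 2641, 1184, 6122 and 1738 in the T-ETV1 arrays, against 2069, 4853 and 8586 in the WT arrays, and Col1a2, a collagen chain, had 46.9, 176, 197 and 136 in the T-ETV1 arrays, against 288, 442 and 2677 in the WT arrays. Pdpn was higher in T-ETV1 C than in WT C by 0.21 on the log2 scale. So were 3 of the 10 basal genes and 0 of the 10 fibroblast genes, in a comparison of 1 array from each group.

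For Reln and Prox1 the markers were neural. Of 9 neural and neuroendocrine genes all were lower in T-ETV1 (median -0.81, 4 at an unadjusted p under 0.05, beside 4.12% of all genes). Their sum was 152 to 387 in T-ETV1 and 589 to 1092 in WT. In 3 of the 9 the groups did not overlap, with T-ETV1 lower, beside 3.90% of all genes. Most were dim. Below the median probe set of the array were 9, 9, 7 and 8 of them in T-ETV1 arrays A, B, C and D. In WT arrays A, B and C it was 5, 6 and 5. The part of neural cells in the levels of Reln and Prox1 was not tested. Of the 6 measured Schwann cell and glial genes 5 were lower (median -0.91, -1.59 without T-ETV1 C and -0.59 without WT B, 0 at an unadjusted p under 0.05 in limma). Sox10, the glial lineage factor, had 4.12, 5.22, 207 and 5.12 in T-ETV1 arrays A, B, C and D, against 128, 191 and 105 in WT arrays A, B and C. Ngfr, a neurotrophin receptor, had 2.76, 1.61, 190 and 2.21 in the T-ETV1 arrays, against 71.0, 146 and 184 in the WT arrays. In both, T-ETV1 A, B and D were at the bottom of the range. Both had T-ETV1 C above every WT array, as in the lymphatic genes other than Flt4, though for Ngfr only narrowly. Their differences were -2.02 ± 0.90 and -2.08 ± 0.94 (limma adjusted p = 0.822 for each), and that of Sox10 was -2.88 without T-ETV1 C, where it passed (limma adjusted p = 0.0216). Nothing is read from that pass, because the T-ETV1 array at the WT level was the one left out. The 10 smooth muscle and pericyte genes were all lower (median -1.19, and -0.76 without WT C, 4 at an unadjusted p under 0.05). Acta2, smooth muscle actin, had 38.4, 37.0, 351 and 53.7 in the T-ETV1 arrays, against 220.5, 554 and 2458 in the WT arrays. Of 9 leukocyte genes 5 were lower (median -0.07, and -1.16 to 1.10 with 1 array left out, 0 at an unadjusted p under 0.05 in limma). Ptprc (CD45), on which cells were sorted out, had 4.56 to 56.0 in T-ETV1, against 5.78, 4.63 and 467 in WT arrays A, B and C. The 10 luminal genes had a median of 0.02 (-0.037 to 0.057 with 1 array left out).

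**Figure D3:**
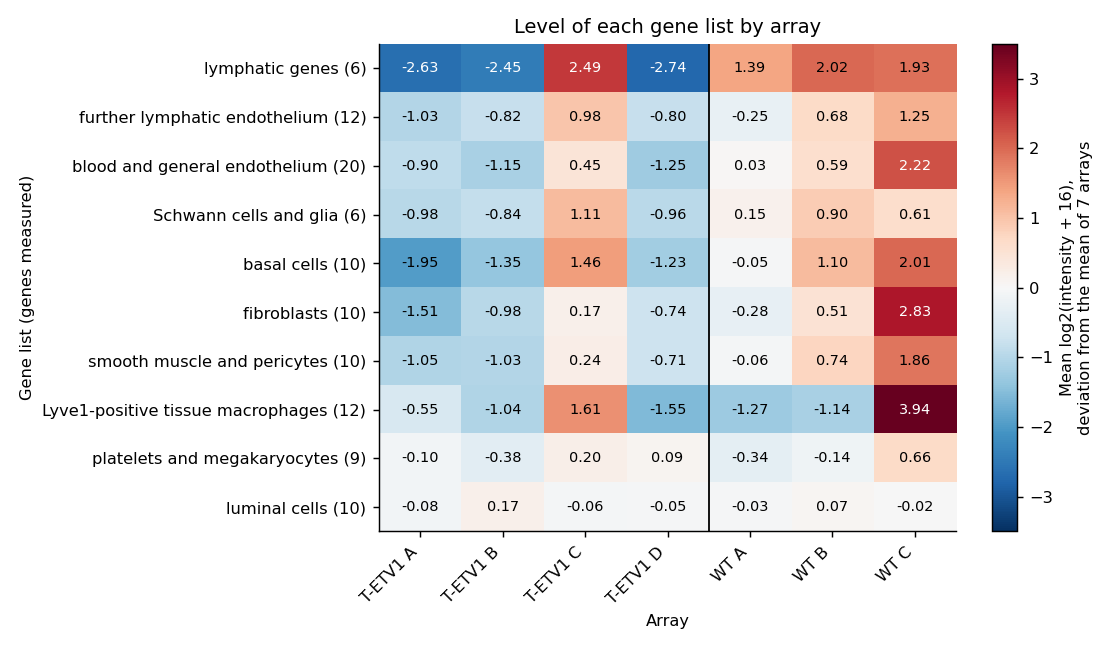
Mean log2(intensity + 16) of each gene list (rows, with the number of genes measured) in each array (columns, T-ETV1 left of WT), as the deviation from the mean of the 7 arrays. The lymphatic genes are at 2.49 in T-ETV1 C and at 1.39 to 2.02 in the WT arrays, with -2.74 to -2.45 in T-ETV1 A, B and D, while macrophage genes are high in WT C at 3.94 and luminal genes stay within -0.08 and 0.17.

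Binding partners and relatives of the 6 proteins showed no common direction. Of 17 genes, 9 were lower and 8 higher, with a median difference of -0.03 (0.02 with quantile normalization, 0.10 with median centring and -0.55 to 0.23 with 1 array left out). In each direction 1 of them had an unadjusted p under 0.05 in limma, beside 4.12% of all genes lower and 2.00% higher. Stab1, a scavenger receptor of lymphatic and sinusoidal endothelium and of macrophages, had 15.2, 18.4, 423 and 18.5 in T-ETV1 arrays A, B, C and D, against 95.1, 326 and 765 in WT arrays A, B and C, a difference of -2.28 ± 1.12 (limma adjusted p = 0.838). Mmrn2, the endothelial relative of Mmrn1, had 16.4, 4.71, 296 and 2.94 in the T-ETV1 arrays, against 189.9, 104 and 472 in the WT arrays, a difference of -2.36 ± 1.07 (limma adjusted p = 0.822). Cd44, the hyaluronan receptor related to Lyve1, had 240 to 855 in T-ETV1 and 65.0 to 906 in WT, with both C arrays the highest of their group. Of the reelin receptors and their adaptor, Vldlr lay at 292 to 879 in T-ETV1 and 232 to 663 in WT, Lrp8 at 7.27 to 21.2 in T-ETV1 and 6.04 to 10.7 in WT, and Dab1 at 149 to 497 in T-ETV1 and 105 to 274 in WT. None of these 4 had the order of arrays of the lymphatic genes. Stab2, the endothelial relative of Stab1, stayed at 6.15 to 17.9 in T-ETV1 and 4.93 to 12.6 in WT.

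The genes most like the mean pattern of the 6 were sought among the 2188 genes that reached an intensity of 100 and ranged over at least 2 on the log2 scale. Likeness was Pearson r over the 7 arrays, which share their libraries, and a high value rests mostly on the gap that sets T-ETV1 A, B and D below the other arrays. The 10 highest were Tgm2 (0.990), Sox10 (0.990), Sned1 (0.990), Lama3 (0.989), Ngfr (0.989), Cavin2 (0.987), Slco4a1 (0.986), Scn7a (0.986), Fgl2 (0.986) and Foxd2 (0.984). Tgm2, a transglutaminase that cross-links proteins, had 207, 447, 6427 and 295 in T-ETV1 arrays A, B, C and D, against 3297, 4633 and 6063 in WT arrays A, B and C. Slco4a1, an organic anion transporter, had 18.6, 6.53, 2203 and 17.8 in the T-ETV1 arrays, against 625, 1557 and 2704 in the WT arrays. Lama3, a laminin chain of epithelial basement membrane, had 222, 249, 1414 and 277 in the T-ETV1 arrays, against 1053, 1543 and 1069 in the WT arrays. Its difference of -1.60 ± 0.65 (limma adjusted p = 0.804) was -2.20 without T-ETV1 C, where it passed (limma adjusted p = 0.0317). Nothing is read from that pass, because Lama3 is named here for its likeness to the pattern that T-ETV1 C breaks. The list holds Lama3 from the basal list and Sox10 and Ngfr from the glial list. Scn7a, a sodium channel, had 7.67, 13.7, 1639 and 42.1 in the T-ETV1 arrays, against 782, 1089.6 and 1197 in the WT arrays, and so lay above every WT array in T-ETV1 C as the lymphatic genes other than Flt4 did.

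**Figure D4:**
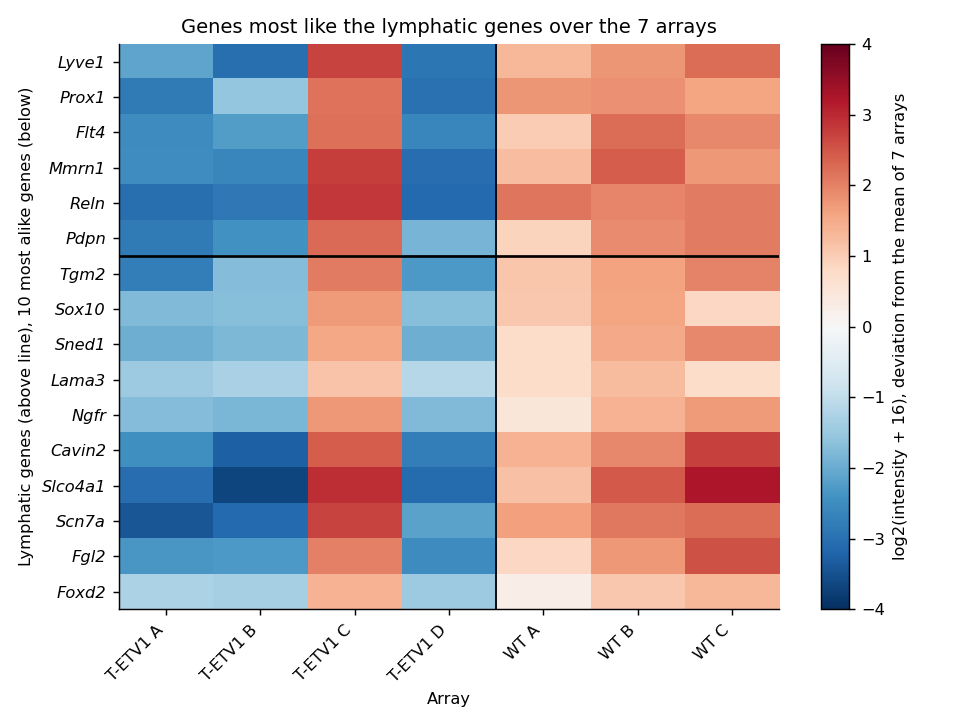
Log2(intensity + 16) as the deviation from the mean of the 7 arrays for the 6 lymphatic genes (above the line) and the 10 genes most like their mean pattern (below the line), with arrays as columns and T-ETV1 left of WT. In every row T-ETV1 C has the colour of the WT arrays, and T-ETV1 A, B and D are below the mean.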

How the data were processed

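Per the labels' protocols, total RNA of sorted mouse prostate luminal cells was taken up in Trizol and amplified by the NuGEN V2 method before hybridisation to Affymetrix 430 2.0 arrays. The authors deposited 1 linear intensity for each probe set on each array. How the authors made and scaled them is not given in the sources used here. Array medians of intensity lay between 48.5 and 73.7, and their log2 values differed by at most 0.476, under the limit of 0.5 set for quantile normalization. Values were used as log2(intensity + 16), which understates differences of dim genes. Of 45037 probe sets 34945 had 1 gene symbol, 932 several and 9160 none, in GEO's platform annotation. Symbols were updated by Entrez ID for 34741. The probe set with the highest mean stood for a gene, which left 18193 genes. They were fitted with limma 3.58.1 in R 4.3.3 (two-sided test of T-ETV1 minus WT with 6.67 total degrees of freedom, Benjamini-Hochberg over all genes, threshold 0.05). The procedure was also run on simulated data with independent noise. Those held no array that stands apart, so the run says nothing of that case. Ly6a (Sca1) and mouse Etv1 were not analysed here.

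The 6 genes and the 13 gene lists were chosen with earlier results of these data known. The text names the 6 genes, genes picked for their role, up to 3 genes of a list with the smallest p, and the genes most like the mean pattern of the 6. Which of the list genes to name was settled after values were seen, and Csf1r, Calcrl and any other name outside that rule was chosen after its values were seen. Deviations from the group means correlated at 0.281, 0.217 and 0.356 for the arrays sharing letter A, B and C, all over the limit of 0.1. T-ETV1 D and WT A, which share no letter, were over it too, at 0.187, so the limit does not single out the letters. The main fit held no pairing. The letters were taken as pairs only for the differences by letter and for a replicate block. Alternatives were 2 other scalings, pseudocounts of 1 and 64, other uses of probe sets, filters on the lowest 30% or 50% of genes, other variance settings, the block, and leaving out arrays. Motifs were searched on both strands of the 250 bases before the start site in RefSeq promoters, matched by symbol, while the plan had named the promoters whole.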

Additional observations from a re-analysis of the deposited data

Results flagged for a closer look

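Among the 4 T-ETV1 arrays, 1 array stood apart from the other 3 for many of the named genes. The measure is Dixon's ratio, the gap of the extreme array to its nearest neighbour divided by the range of the group, on the log2(intensity + 16) scale. Values over Dixon's 95% limit for 4 samples are taken as apart, and chance gives about 1 group in 20. Of all 18193 genes 1239 (6.81%) were over it, 446 (2.45%) with T-ETV1 C as the high array. Since the 6 lymphatic genes were listed for this pattern and their most alike genes by likeness to it, their ratios are a description only. In all that follow, T-ETV1 C was the high array unless another is named.

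Of the lymphatic genes, the ratio was 0.961 for Reln, 0.927 for Flt4, 0.904 for Mmrn1 and 0.842 for Lyve1, and their mean had 0.944, while Prox1 and Pdpn were not over the limit. Among the endothelial and pathway genes, it was 0.967 for Pecam1, 0.960 for Cldn5, 0.915 for Thy1, 0.878 for Tie1, 0.847 for Fxyd6, 0.844 for Kdr and 0.841 for Ptprb. Angpt1 had 0.853 with T-ETV1 D as the high array. Of the partners, Stab1 had 0.962 and Vldlr 0.861. Among genes of other cell types, the ratio was 0.978 for Sox10, 0.974 for Ngfr, 0.899 for Krt14, 0.899 for Csf1r, 0.885 for Lama3, 0.867 for Ptprc, 0.858 for Acta2 and 0.841 for Itga6. Of the genes most alike, Sned1 had 0.953, Fgl2 0.953, Foxd2 0.935, Slco4a1 0.907 and Cavin2 0.856. The list means over the limit were those of Schwann cells and glia (0.937), partners and relatives (0.924), the VEGF-C and VEGFR3 pathway (0.888) and further lymphatic endothelium (0.885), and that of luminal cells (0.874) with T-ETV1 B as the high array.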

How the results depend on the processing

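All values here are log2 differences, T-ETV1 minus WT, unless they are counts of genes. The differences of the 6 lymphatic genes kept their sign in every alternative that used the brightest probe set, ranging from -5.28 to -2.32 for Reln, -4.53 to -2.08 for Mmrn1, -4.45 to -2.50 for Lyve1, -4.24 to -2.08 for Prox1, -4.18 to -1.95 for Flt4 and -3.99 to -2.28 for Pdpn. The mean of all probe sets of a gene, the dim ones included, gave -1.17 for Prox1, -1.68 for Mmrn1, -1.73 for Reln, -2.90 for Flt4, -3.28 for Lyve1 and -2.83 for Pdpn, which has 1 probe set, and a median of -2.28. Single probe sets at low intensity gave -0.17 and -0.33 for Prox1, -0.23 for Mmrn1 and 0.13 for Reln. With the replicate block the median of the 6 was -2.58 and 0 genes were called, so the block changed no call. The count of genes called, 0 with all arrays, was 0 to 27 when 1 array was left out (27 without T-ETV1 C, 7 without WT C), and 68 with neither T-ETV1 C nor WT C. The cause was not tested.

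Of 236 alternative list medians 225 stayed within 1 SD of the spread between arrays, some with a turned sign, such as macrophages (0.74) and leukocytes (1.10) without WT C. The others were luminal cells with median centring (0.16), the VEGF-C and VEGFR3 pathway without the lowest 50% of genes (-0.28), fibroblasts when 1 array was left out (-2.90 to -0.49), the neural list with a pseudocount of 1 (-1.22), a pseudocount of 64 (-0.40), the mean of probe sets (-0.53), without the lowest 30% of genes (-1.25) and with 1 array left out (-1.11 to -0.65), and the Schwann list with a pseudocount of 1 (-1.75), without the lowest 30% (-1.76) and without the lowest 50% of genes (-0.023). The macrophage, platelet and neural lists had no gene left without the lowest 50%.

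For the other named genes 979 of the alternatives kept the call and the sign, 20 passed the threshold, all of them with T-ETV1 C or both arrays C left out, and 41 turned the sign, all in genes that were not called. Leaving out 1 array turned the sign within the ranges -0.16 to 0.69 (Vegfc), -1.19 to 0.26 (Vegfd), -0.085 to 0.33 (Ccbe1), -0.83 to 0.060 (Adamts3), -1.40 to 0.32 (Foxc2), -0.19 to 0.70 (Itga9), -0.55 to 1.20 (Cd44), -0.16 to 0.13 (Clec1b), -0.21 to 0.55 (Vldlr), -2.92 to 0.41 (Csf1r), -2.18 to 0.51 (Cd163), -0.92 to 0.22 (Itga2b), -0.56 to 2.82 (Pf4), -1.77 to 0.51 (Ptprc), -0.079 to 0.16 (Krt8), -0.015 to 0.038 (Krt18) and -0.090 to 0.18 (Itga6). Without both arrays C the sign turned for Vegfd (0.47), Adamts3 (0.036), Cd163 (0.083), Itga2b (0.56), Ptprc (0.089) and Itga6 (-0.014). The mean of probe sets turned Itga9 (-0.31), Vldlr (-0.15), Epcam (0.12) and Itga6 (-0.044). Array weights turned Krt8 (-0.080), Angpt2 (-0.0043) and Stab2 (-0.051), and Clec1b turned with quantile normalization (0.019) and median centring (0.10).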

Other observations

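The single lymphatic genes had partly different nearest genes in the search by Pearson r over the 7 arrays, which share their libraries. For Lyve1 these were Npl (0.999), Cavin2 (0.995) and Lbp (0.991), for Prox1 Wfdc12 (0.985), Mroh4 (0.985) and Tgm2 (0.984), and for Flt4 Postn (0.994), Sned1 (0.993) and Ngfr (0.992). For Mmrn1 they were Sox10 (0.992), Lama3 (0.987) and Ngfr (0.985), for Reln Sox10 (0.987), Cldn5 (0.985) and Scn7a (0.984), and for Pdpn Scn7a (0.995), Fmod (0.995) and Col4a2 (0.992). As for the mean pattern, such values rest mostly on the gap between T-ETV1 A, B and D and the other arrays.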
